A study of Pyrus x bretschneideri with 2 samples.

Results

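The genes described here are 7 of the 45022 pear (Pyrus x bretschneideri) genes in the deposited expression table, and their descriptions name enzymes of cell wall polysaccharides. They are a pair of pectinesterase 2-like genes (Pbr015755 and Pbr012741), a pair of polygalacturonase QRT3-like genes (Pbr023154 and Pbr031597), a xyloglucan galactosyltransferase KATAMARI1-like gene (Pbr030809) and a pair of genes of cellulose synthase-like protein H1 (Pbr018127, Pbr041814). They were chosen by identifier from the 381 genes that the authors listed as different between the libraries, and so were selected on the measured difference between the libraries. Their values are given as a description without a test. Of the 7, 5 are among the genes listed lower after the yeast (0.529% of all 45022) and 2 among those listed higher (0.318%). RNA came from the tissue around fruit wounds kept for 3 days at 20 °C. One group was given sterile distilled water and the other the yeast Meyerozyma guilliermondii, with 1 library in each, called the water library and the yeast library below. Cultivar, fruit age, pooling of fruit and yeast dose are not stated in the labels, and with 1 library per group no difference has a replicate check.

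The plant cell wall is a network of cellulose held with hemicelluloses such as xyloglucan and embedded in pectin. Pectinesterases remove methyl groups from pectin, after which the chain can either be bound by calcium or be cut by polygalacturonases, and both enzymes are best known in fruit from the softening that comes with ripening. The galactosyltransferase named KATAMARI1 adds galactose to xyloglucan in Arabidopsis, and cellulose synthase-like proteins are membrane enzymes that build the backbones of other wall glucans. The first 2 kinds take the wall apart or remodel it, and the last 2 kinds make its polymers.

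The deposited descriptions bear the names out in part. Both pectinesterases carry a pectinesterase domain and the inhibitor-like domain that many plant pectinesterases have in front of it. Both QRT3-like genes carry a pectate lyase superfamily domain, and their closest Swiss-Prot entry is the Arabidopsis polygalacturonase QRT3, which is known from the separation of pollen grains. Pbr030809 has the exostosin domain found in this family of glycosyltransferases. Pbr041814 carries only cellulose synthase and glycosyl transferase domains, but Pbr018127 carries pentatricopeptide repeat domains as well, which belong to another kind of protein. The best database hit was a pear protein for 7 of the 7 genes.

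The 5 genes for pectin and xyloglucan enzymes stood lower in the yeast library and the 2 cellulose synthase-like H1 genes stood higher. On the log2(FPKM + 1) scale, where FPKM is a fragment count per gene length and library size, all 5 lower genes and both higher genes were past a 2-fold difference. Among the 22603 genes that reached 1 FPKM in at least 1 library, 3.00% were at least 2-fold lower and 3.32% at least 2-fold higher. Past 4-fold were 3 of the lower genes and 1 of the higher genes, beside 0.858% and 0.637% of all genes. These shares are printed as background only, since the choice of the 7 genes used the same difference. In bulk tissue, fewer cells of a type and less RNA per cell cannot be told apart.

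**Figure D1:**
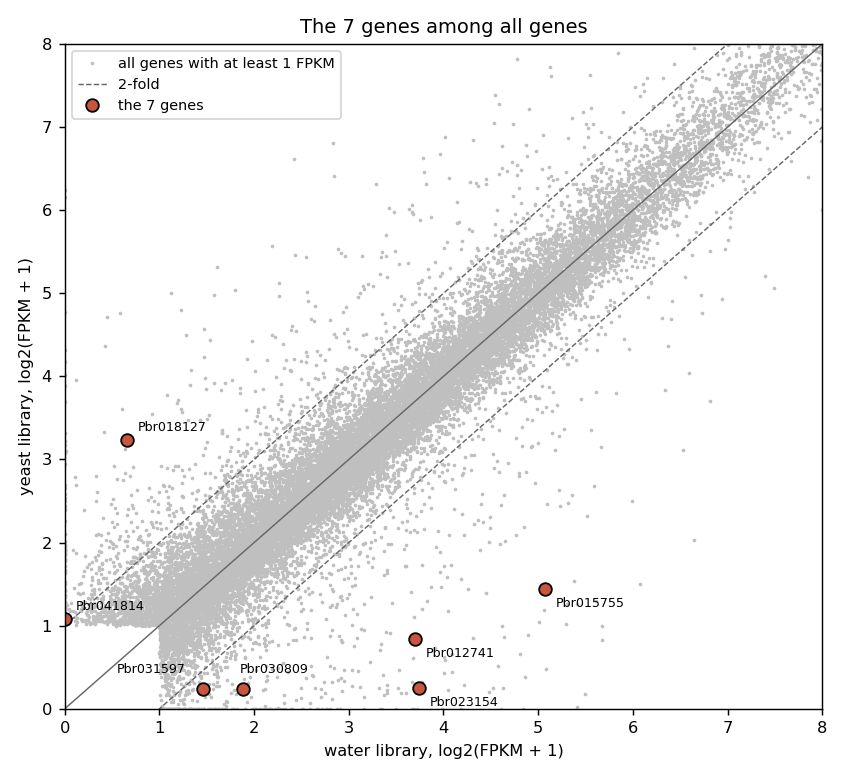
Each grey point is a gene that reached 1 FPKM in at least 1 library, placed by its log2(FPKM + 1) in the water library (horizontal) and in the yeast library (vertical), with both axes ended at 8. The solid line marks equal levels and the dashed lines a 2-fold difference. The 5 pectin and xyloglucan genes lie below the lower dashed line and the 2 cellulose synthase-like H1 genes above the upper one.

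The deposited log2 fold changes also gave access to the reads behind them. For each of the 7 genes 1 pair of whole numbers, and no other pair up to 20000, returned the value in the authors' deposited table to within 3e-09. This held under a pseudocount averaging 0.125 reads per library and a scaling that put the water library at 1.05 times the yeast library. These pairs are called recovered reads. They come from the same comparison as the deposited fold changes and are not a second measurement. The 95% intervals given with them are exact binomial intervals, which cover counting error only and not the spread between fruit.

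Pbr015755, a pectinesterase 2-like gene, was the most abundant of the 7 in the water library, at 32.7 FPKM after water and 1.71 FPKM after the yeast. It stood 3872nd by FPKM among 28664 genes above 0 in the water library and 19209th among 28405 in the yeast library. The recovered reads were 2091 after water and 104 after the yeast, a level 19.2-fold lower after the yeast (interval 15.8 to 23.7). This placed it in the upper part of the expressed genes in the first library and in the lower part in the second. The authors' deposited table gives it a log2 fold change of -4.26 with an adjusted p of 5.18e-06, which compares these 2 libraries and not the treatments. Only 34 of the 22603 genes, this one included, had a log2(FPKM + 1) ratio as low as its -3.63.

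The other pectinesterase 2-like gene, Pbr012741, had 12.0 FPKM after water and 0.794 FPKM after the yeast. Its recovered reads were 1021 and 58, a level 16.8-fold lower after the yeast (interval 12.9 to 22.3). The intervals of the pair overlap, so their differences could not be told apart at this depth. In the water library Pbr015755 stood at 2.72 times the FPKM of Pbr012741, and in the yeast library at 2.16 times. The pair summed to 44.7 FPKM after water and 2.51 after the yeast. Both genes have the same Swiss-Prot hit, an orange pectinesterase, and how reads that match both were divided is not known here.

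Pbr023154, a polygalacturonase QRT3-like gene, had the largest fold difference of the 7 by recovered reads. It stood at 12.4 FPKM after water, close to the second pectinesterase, and at 0.191 FPKM after the yeast. The recovered reads were 650 and 8, a level 77.7-fold lower after the yeast (interval 39.2 to 181). In the authors' deposited table its log2 fold change is -6.26. Its partner Pbr031597 was a low gene in both libraries, with 1.76 FPKM and 111 recovered reads after water, and 0.180 FPKM and 8 reads after the yeast. That is 13.3-fold lower (interval 6.51 to 31.5), and the intervals of this pair do not overlap.

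The pair of QRT3-like genes therefore differed in the water library, where Pbr023154 stood at 7.05 times the FPKM of Pbr031597, and lay close together in the yeast library, at 1.06 times. The value after the yeast rests on 8 reads for each gene, so a ratio between them there is uncertain. Summed over the 4 pectin genes, the level was 58.8 FPKM after water and 2.88 FPKM after the yeast, and the recovered reads were 3873 and 178.

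Pbr030809, the KATAMARI1-like gene, belongs to wall synthesis by its description but stood on the lower side. It had 2.70 FPKM after water and 0.179 FPKM after the yeast, from 136 and 8 recovered reads. The level after the yeast was 16.3-fold lower (interval 8.02 to 38.4), and the authors' deposited table gives a log2 fold change of -4.00. A second KATAMARI1-like gene in that table, Pbr031150, stood at 1.41 and 0.121 FPKM, from 90 and 6 recovered reads. It was 14.3-fold lower (interval 6.34 to 40.1), and the intervals of the pair overlap.

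**Figure D2:**
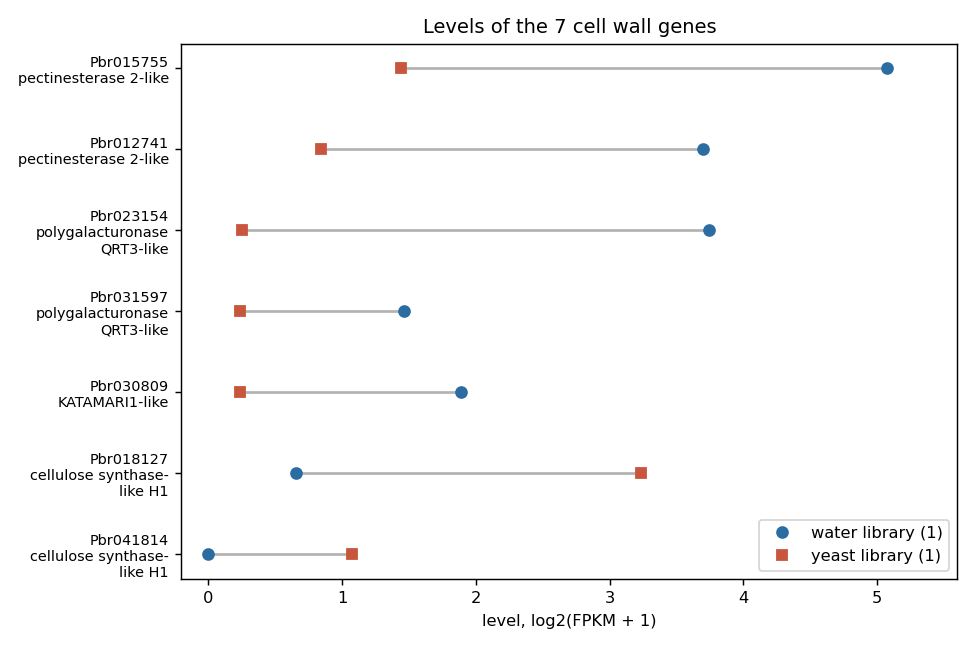
The level of each of the 7 genes as log2(FPKM + 1), with a circle for the water library and a square for the yeast library, 1 library each and so without error bars. Pbr015755 spans the widest distance on this scale, from 32.7 to 1.71 FPKM, and Pbr041814 starts at 0 FPKM after water.

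Pbr018127, a cellulose synthase-like H1 gene, stood at 0.573 FPKM after water and 8.41 FPKM after the yeast. Cellulose synthase-like H proteins make a mixed-linkage glucan in barley, and a role in pear is not described in the files. The recovered reads were 482 and 6226, a level 13.5-fold higher after the yeast (interval 12.3 to 14.8). The authors' deposited table gives a log2 fold change of 3.75. It stood 23174th by FPKM in the water library and 10669th in the yeast library.

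Pbr041814, the other cellulose synthase-like H1 gene, was listed at 0 FPKM after water and had 1.11 FPKM after the yeast. The value of 0 did not mean that no read was counted, since the recovered reads were 5 after water and 93 after the yeast. On these reads the level was 19.4-fold higher after the yeast (interval 8.04 to 61.3). The authors' deposited table gives a log2 fold change of 4.25. The wide interval follows from the 5 reads and includes the 13.5-fold of Pbr018127, so the differences of the pair could not be told apart.

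**Figure D3:**
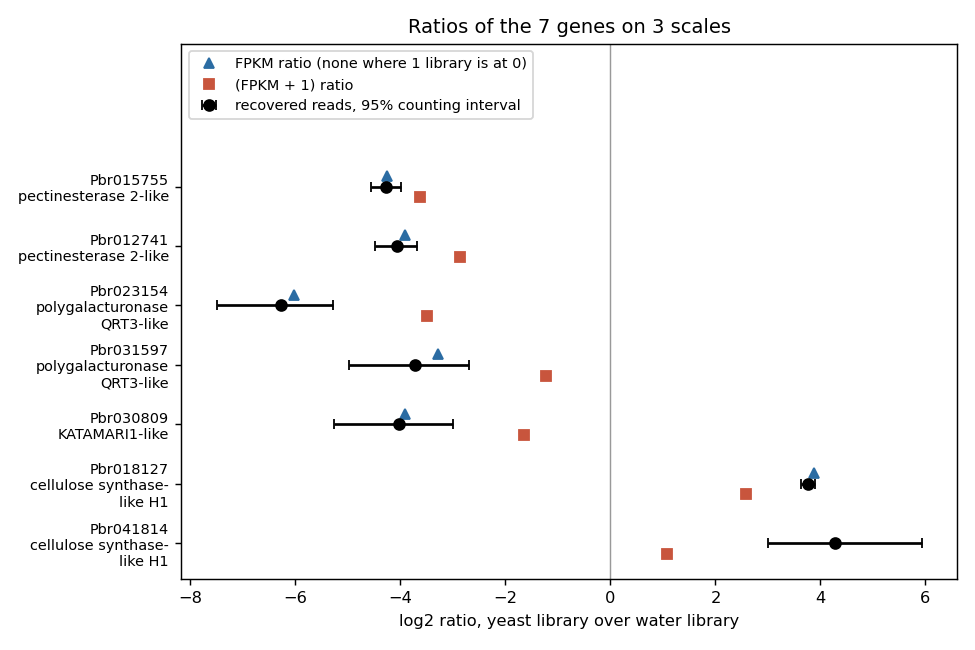
The log2 ratio of the yeast library over the water library for each gene on 3 scales: recovered reads with their 95% counting interval (circles and bars), plain FPKM (triangles) and FPKM with 1 added to each library (squares). All 3 scales put the same 5 genes below 0 and the same 2 above, the squares lie nearest to 0, and Pbr041814 has no triangle because its water value is 0 FPKM.

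Adding 1 FPKM gave ratios nearer to 0, since the levels in 1 of the libraries were low. Pbr023154 had a log2 ratio of -6.02 on plain FPKM and -3.49 with 1 added, and Pbr031597 had -3.29 and -1.22. For 6 of the 6 genes with FPKM above 0 in both libraries the plain FPKM ratio lay inside the interval of the recovered reads. Pbr018127 was the nearest to a bound, at 3.88 against an upper bound of 3.89.

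The recovered reads behind 1 FPKM set Pbr018127 apart from the others. Reads per FPKM grow with the length of a gene, and lengths are not in the files. In the yeast library the other 6 genes had between 41.9 (Pbr023154) and 83.9 (Pbr041814) recovered reads per FPKM, around the median of 51.0 over 286 listed genes. Pbr018127 had 740 after the yeast and 842 after water. Of the 286 genes 2 had more after the yeast, and of 330 genes 0 had more after water. Its FPKM and its reads are thus on different footings from those of the other members, although both were higher after the yeast.

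**Figure D4:**
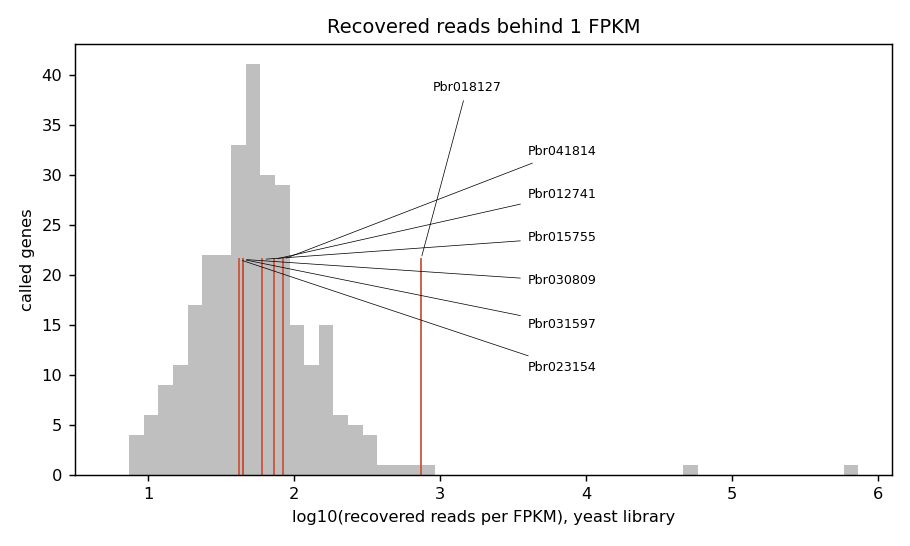
Histogram over the 286 genes of the authors' table with FPKM above 0 in the yeast library and recovered reads, by the log10 of recovered reads per FPKM. Vertical lines mark the 7 genes, of which 6 lie between 41.9 and 83.9 reads per FPKM and Pbr018127 lies at 740.

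One more listed gene with a cellulose synthase domain, Pbr018125, has an identifier 2 numbers below Pbr018127 and also carries pentatricopeptide repeats. Its best database hit is a pentatricopeptide repeat protein, and it was listed at 0 FPKM in both libraries. The recovered reads were 3 after water and 101 after the yeast. How the authors' counting divided reads between Pbr018125 and Pbr018127 is not known here, so the values of both are uncertain as separate genes.

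Genes with neighbouring identifiers were compared as well. Of the 42 identifiers within 3 of a member, 40 were in the table, and 17 of these were listed at 0 in both libraries. The 11 that reached 1 FPKM in at least 1 library had log2(FPKM + 1) ratios between -0.71 and 0.96, with 0 past 2-fold on that scale, which draws low genes towards 0. On plain FPKM Pbr018124 (3.67 after water and 8.06 after the yeast) and Pbr031599 (2.85 and 1.35) were past 2-fold. Beside Pbr031597 (1.76 and 0.180 FPKM), for example, Pbr031596 stood at 31.1 FPKM after water and 37.3 after the yeast. Beside Pbr015755, Pbr015756 stood at 5.90 and 10.6 FPKM. Pbr018125, at 0 FPKM in both libraries but with 3 and 101 recovered reads, was the 1 neighbour that the authors listed.

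Other listed wall genes were counted through text patterns in their descriptions, since genes that the authors did not list carry none. Of all 381 listed genes 62.5% were lower and 37.5% higher after the yeast, and their median log2 fold change in the authors' deposited table was -3.58. The pectin list held 6 genes, the 4 members and 2 others, with 0 higher and 6 lower and a median of -3.89 in the authors' deposited table. The 2 others are galacturonosyltransferase-like 1 genes, of a family that in Arabidopsis takes part in making wall polymers and does not degrade pectin. Pbr022858 stood at 15.5 FPKM after water and 1.27 after the yeast, from 547 and 45 recovered reads, and Pbr017240 at 13.6 and 1.77, from 1070 and 130.

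The xyloglucan and expansin list held 6 genes, 1 higher and 5 lower, with a median of -3.91 in the authors' deposited table. Expansins loosen the wall without cutting its polymers. Pbr019282, expansin-A10-like, stood at 2.09 FPKM after water and 0.210 after the yeast. Pbr013129, expansin-A4-like, stood at 0.794 FPKM after water, was listed at 0 after the yeast, and had 25 and 0 recovered reads. Endoglucanases, which cut glucan chains, lay on both sides. Pbr038578, endoglucanase CX-like, had 77 recovered reads after water and 1 after the yeast, while Pbr017522, an endoglucanase 1 by its Swiss-Prot hit, had 1 and 64.

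The cellulose and hemicellulose synthesis list held 3 genes, the 2 cellulose synthase-like H1 genes and Pbr018125, with 3 higher and 0 lower. The list of wall proteins held 5 genes, 3 higher and 2 lower, with a median of 3.13 in the authors' deposited table. Its 3 higher genes are BURP domain-containing protein 17-like, of a plant family of secreted proteins. They are Pbr018894 (3.79 FPKM after water and 33.8 after the yeast), Pbr017157 (2.48 and 32.0) and XLOC_020688 (1.27 and 11.9). The 2 lower genes are XLOC_003974, extensin-like, with 69 recovered reads after water and 0 after the yeast, and Pbr011041 (25 and 0). The best database hit of Pbr011041 is a probable serine/threonine-protein kinase. Pbr007526 fell outside the patterns and had 43 recovered reads after water and 0 after the yeast. Its best database hit is a probable endo-beta-1,4-glucanase D, but its Swiss-Prot hit is a vegetative cell wall protein, so its kind is uncertain. Pbr013482 has the same Swiss-Prot hit, also fell outside the patterns and was higher after the yeast. It stood at 1.18 FPKM after water and 31.0 after the yeast, from 37 and 891 recovered reads. Its best database hit is a putative golgin-like protein, so the kind of Pbr013482 is uncertain as well.

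The listed genes were also set against each other by what the enzymes do. Counting the expansins and endoglucanases of the lists with the pectin enzymes, 7 of 8 loosening genes were lower and 1 was higher. Pbr007526, lower and outside the patterns, is not in this count. Of 7 synthesis genes 4 were lower and 3 higher, the lower ones being both KATAMARI1-like genes and both galacturonosyltransferase-like 1 genes. The 3 higher ones include Pbr018125, whose best database hit is a pentatricopeptide repeat protein. How reads were divided between it and Pbr018127, also among the 3, is not known. Among all 381 listed genes 62.5% were lower and 37.5% higher. Members chosen on this same difference make up 4 of the 8 loosening and 3 of the 7 synthesis genes. This grouping was made after the values were seen and no test compares the 2 sides. A pectinesterase can also help to stiffen a wall, so its place among loosening enzymes is a convention.

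**Figure D5:**
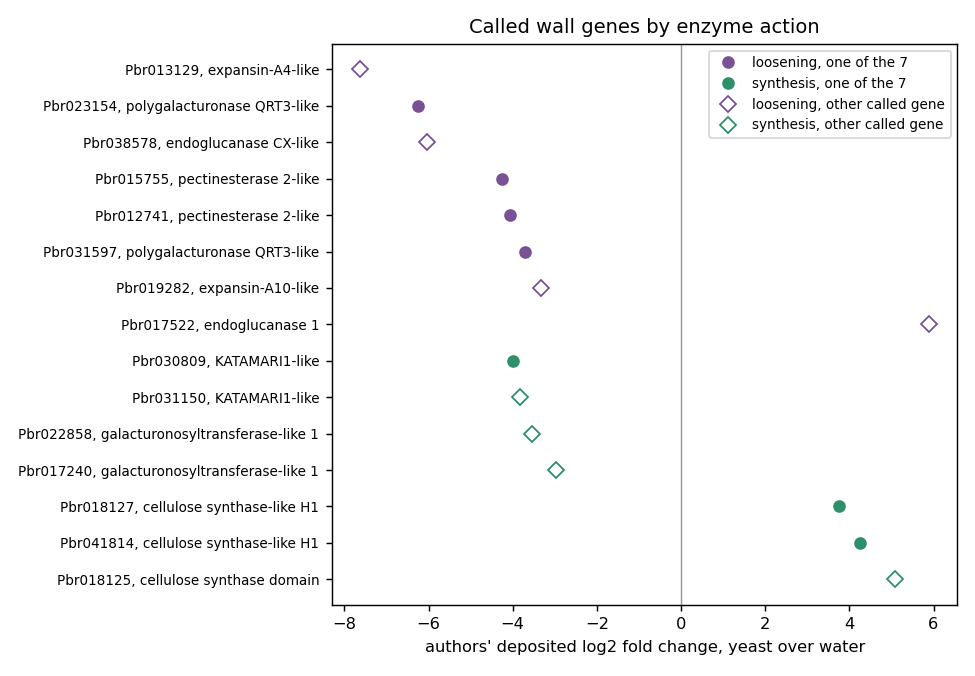
The log2 fold change in the authors' deposited table (yeast over water) of 15 listed wall genes, with loosening enzymes above and synthesis enzymes below, filled circles for the 7 genes and open diamonds for 8 others. Of the loosening enzymes 7 of 8 lie below 0, and the synthesis enzymes lie on both sides with 4 below and 3 above. The 3 above include Pbr018125, which is uncertain as a separate gene. Of all 381 listed genes 62.5% lie below 0.

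The nearest listed genes to each member were sought by the distance between log2(FPKM + 1) values over the 2 libraries. Genes whose best hit was called uncharacterized, hypothetical, unnamed or unknown were left out, so an omitted gene can lie nearer. The nearest genes that were kept had descriptions other than wall enzymes. For Pbr015755 they were the flavonol synthase 3-like genes Pbr003484 (32.4 FPKM after water and 1.28 after the yeast, distance 0.25) and Pbr003486 (38.6 and 1.40, distance 0.29). For Pbr012741 they were MYC2-like Pbr037113 (11.8 and 0.533) and a UDP-glycosyltransferase 83A1-like gene, Pbr038339 (14.1 and 0.657). For Pbr023154 they were the 7-deoxyloganetin glucosyltransferase-like gene Pbr021702 (12.7 and 0.252) and the nudix hydrolase 1-like gene Pbr013234 (11.7 and 0.249). A pattern over 2 libraries is only a pair of values, and nearness in it says nothing of a shared role.

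For the other 4 genes the nearest that were kept were again of mixed kinds. Pbr031597 had the EXO70B1-like gene Pbr023465 (1.97 FPKM after water and 0.182 after the yeast) and the cyclin-T1-4-like locus XLOC_017503 (1.56 and 0.177). The gene Pbr035434 (1.73 and 0.165), left out as an uncharacterized protein, lies nearer to Pbr031597 than both. Pbr030809 had the protein phosphatase 2C 25 gene Pbr010918 (2.69 and 0.167) and the allene oxide synthase gene Pbr006204 (2.72 and 0.155). On the higher side, Pbr018127 had XLOC_005771 (0.334 and 9.06), described only as a predicted protein of a green alga, and the S-adenosylmethionine synthase 2-like gene Pbr026061 (0.554 and 6.15). Pbr041814 had the universal stress protein A-like gene Pbr008482 (listed at 0 and 1.20) and the ERF114-like gene Pbr029833 (listed at 0 and 0.943).

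Text patterns meant to mark other tissues or organisms were counted in the same way. The epidermis and cuticle patterns matched 3 listed genes, 0 higher and 3 lower, whose summed level was 208 FPKM after water and 11.0 after the yeast. All 3 are described as epidermis-specific secreted glycoprotein EP1-like. The stone cell and secondary wall patterns matched 10, with 2 higher and 8 lower, from a sum of 80.4 FPKM to 35.1. Most of the sum after the yeast came from 1 of the higher genes, Pbr015965, at 1.99 FPKM after water and 30.5 after the yeast. All 10 were matched as laccase or peroxidase genes, and whether they mark stone cells in this tissue was not tested. The xylem and phloem patterns matched 0, and the patterns of fungal names matched 2 listed genes, 1 higher and 1 lower. These names missed Pbr034063, whose best hit is a protein of the fungus Rhizophagus irregularis. It had 0 recovered reads after water and 25 after the yeast, so the count of fungal hits is incomplete. The part of tissue make-up in the values of the 7 genes was not tested.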

How the data were processed

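The authors deposited FPKM values for 45022 genes in 2 libraries, and a table of 381 genes with log2 fold changes (yeast over water) and adjusted p-values (FDR), per the file headers. Per the submitters' processing notes, Bowtie 0.12.2 was used. Which gene counter, genome build, annotation and comparison tool were used is not given in the sources used here. The sample descriptions and titles tie each column to its group.

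With 1 library per group no test was made. Ratios were log2((yeast + 1)/(water + 1)) for genes that reached 1 FPKM in at least 1 library, with a 2-fold size rule. Whole reads were recovered from the deposited log2 values. For genes without reads in 1 library, the unlogged fold minus 1 rises in equal steps per read. Steps were fitted on all genes where that quantity was above 150, and 65 of 67 lower and 20 of 25 higher genes lay on them. The inverse steps of the 2 libraries sum to 0.25. Pairs up to 20000 reads were searched, within 3e-09 (10 times that for values of 10 or more), and the smallest was taken. A pair was found for 372 of 381 genes and was the only one for 359. Total depth is unknown. Both steps were tested on simulated data. The simulated log2 values were built in the form that the recovery assumes, so they cannot show that the authors' values follow it.

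Named genes were the 7 members, the 3 most abundant other genes of each wall list, the 2 nearest listed genes and identifier neighbours. The nearest genes were taken without those whose best hit was uncharacterized, hypothetical, unnamed or unknown. Pbr007526, Pbr011041, Pbr013129, Pbr013482, Pbr015965, Pbr017522, Pbr034063, Pbr035434 and XLOC_003974 were added after their values were seen. The members, lists and roles were chosen with earlier results of these data known. No sequences or coordinates are printed. Python 3.11.15, numpy 2.4.6, pandas 2.3.3 and scipy 1.17.1 were used.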

Additional observations from a re-analysis of the deposited data

How the results depend on the processing

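The direction of the 7 log2 ratios was the same in all 42 values computed under 6 alternatives. These were pseudocounts of 0.1 and 0.5 FPKM, 2 rescalings of the libraries, the authors' deposited log2 fold change, and recovered reads (chosen after seeing the data). This is no check of direction, since a shared pseudocount cannot change the sign of a ratio. The rescaling factors between the libraries were only 0.00595 and 0.111 on the log2 scale. The members were chosen on the authors' comparison, and the recovered reads derive from it. Of these 42 values 24 moved by more than the counting error. With at least 5 FPKM in either library, 3 members were 2-fold lower and 1 higher, and 382 and 470 of all genes. At 4-fold, 3 members were lower and 1 higher, and 194 and 144 of all genes. With a pseudocount of 0.1 FPKM, 1100 of all genes were 2-fold lower and 1347 higher. By the best database hit only, the xyloglucan and expansin list had 0 higher genes and the wall protein list 1 lower. On the same rule the cellulose and hemicellulose synthesis list had 2 higher genes. Without genes listed at 0 FPKM, the xyloglucan and expansin list had 0 higher and 3 lower genes, the cellulose and hemicellulose synthesis list 1 higher, and the wall protein list 0 lower. No paired analysis was possible because each group has 1 library, and for the same reason no library could be left out. The values of Pbr023154, Pbr031597 and Pbr030809 in the yeast library rest on 8 reads each and that of Pbr041814 in the water library on 5.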

Other observations

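An FPKM of 0 often stood beside recovered reads above 0 among the genes of the authors' deposited table, as it did for Pbr041814. Of 42 such genes at 0 FPKM in the water library, 21 had at least 1 recovered read there, and 13 had 5 or more. Of 86 genes at 0 FPKM in the yeast library, 21 had at least 1. For 3 genes both FPKM values were 0. Genes at 0 FPKM in 1 library therefore do not all have 0 reads there, and folds that treat such a value as no expression differ from those the reads give.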
